A study of Mus musculus with 2 samples.

Results

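Cyclic nucleotide phosphodiesterases are the enzymes that break down cAMP and cGMP. The report covers 9 genes of this name group that stand outside the families ibudilast is best known to inhibit: Pde1b, Pde1c, Pde2a, Pde5a, Pde6d, Pde7a, Pde7b, Pde8a and Pde9a. They were chosen by symbol alone, and each matched 1 of the 31253 genes listed in both count tables. The ibudilast library came from CD45+ cells of GL261 gliomas, a mouse tumour line implanted in the brain, in C57BL/6 mice that were given 20 mg/kg ibudilast by gavage, 5 times a week for 2 weeks. The PBS library came from the same kind of tumour-bearing mice given PBS over the same schedule. The control label calls that library untreated, while its protocol names PBS. All mice of both groups carried the tumour. Each group is 1 library, and how many mice went into it is not stated in its labels.

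Cells raise cAMP through adenylyl cyclases and cGMP through guanylyl cyclases, and phosphodiesterases set how long either messenger lasts. In T cells cAMP acts through protein kinase A to restrain signalling from the antigen receptor, and in macrophages it dampens inflammatory cytokine output. The PDE7 and PDE8 enzymes act on cAMP, PDE5 and PDE9 on cGMP, and PDE1 and PDE2 on both, with PDE1 switched on by calcium and calmodulin and PDE2 switched on by cGMP. Pde6d does not encode a catalytic enzyme: its product, the PDE6 delta protein, binds prenyl groups and shuttles prenylated proteins between membranes.

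The 3′ libraries held 8483 barcodes and 82196922 UMIs (ibudilast) and 8968 barcodes and 119113794 UMIs (PBS). After filtering, 6655 ibudilast and 7666 PBS cells were kept, with median depths of 7859 and 11659.5 UMIs. Cells were assigned to types by UMIs of marker genes, none of them a phosphodiesterase, and 13 types with at least 50 cells in each library were compared. Every marker of its own list was found in both libraries in 12 of these 13 types, and the intermediate gate between monocytes and macrophages has no list of its own. Barcodes with a lineage gate and much macrophage RNA (848 ibudilast and 810 PBS) and barcodes of no gate (1329 and 919) were kept out of the types. The 2 libraries shared 19 barcode sequences. Levels are given as CPM, the summed UMIs of a gene in a type scaled to a common total of all its UMIs, and intervals are exact 95% intervals that cover counting error only and leave out the spread between cells. The treatment could therefore not be tested, since a group is a single library, and each ratio compares 2 libraries. Because the reads come from transcript ends, levels are not compared between genes.

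No promoter activity was measured, and 2 promoter windows are shown as the sequence context of the genes with a myeloid and a broad pattern below. RefSeq start sites on GRCm38.p6 gave 15 windows for 7 of the 9 genes, each 300 bases long (250 before and 50 after the start). The cAMP response element TGACGTCA was in 0 of the 15 windows, against 1.79% of all 32851 windows. Its core TGACG, searched on both strands, was in 2 of the 15, against 20.8% of all. The letters GAGGAA, part of the consensus site of the myeloid factor PU.1, occurred 3 times in the Pde7b window, searched on both strands, and 0.685% of all windows held 3 or more. GAGGAA occurred in 7 of the 15 windows, those of Pde1b, Pde1c, Pde2a and Pde7b, against 28.3% of all. The longer PU.1 string GAGGAAGT was in 0 of the 15, the Pde7b window included, against 3.2% of all. A match describes letters only. The single Pde7b window lies inside the annotated gene, and its 5′ end at position 20725078 was not searched. The Pde7b window lies at chr10:20548279-20548578 on the minus strand, with GAGGAA in capitals, and the Pde8a window at chr7:81213015-81213314 on the plus strand, with TGACG in capitals.
Pde7b: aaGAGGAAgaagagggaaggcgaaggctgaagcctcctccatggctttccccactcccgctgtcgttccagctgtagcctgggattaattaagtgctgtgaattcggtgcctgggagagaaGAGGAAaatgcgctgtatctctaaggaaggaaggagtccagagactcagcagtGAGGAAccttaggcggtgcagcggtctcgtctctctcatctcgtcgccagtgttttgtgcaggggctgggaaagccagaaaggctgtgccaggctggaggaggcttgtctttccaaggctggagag
Pde8a: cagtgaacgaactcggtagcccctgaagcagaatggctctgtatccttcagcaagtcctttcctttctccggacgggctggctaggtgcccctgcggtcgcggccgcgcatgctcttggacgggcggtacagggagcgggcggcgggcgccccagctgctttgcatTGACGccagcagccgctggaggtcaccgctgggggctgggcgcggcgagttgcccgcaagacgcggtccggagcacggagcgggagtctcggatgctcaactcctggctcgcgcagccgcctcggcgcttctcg

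**Figure D1:**
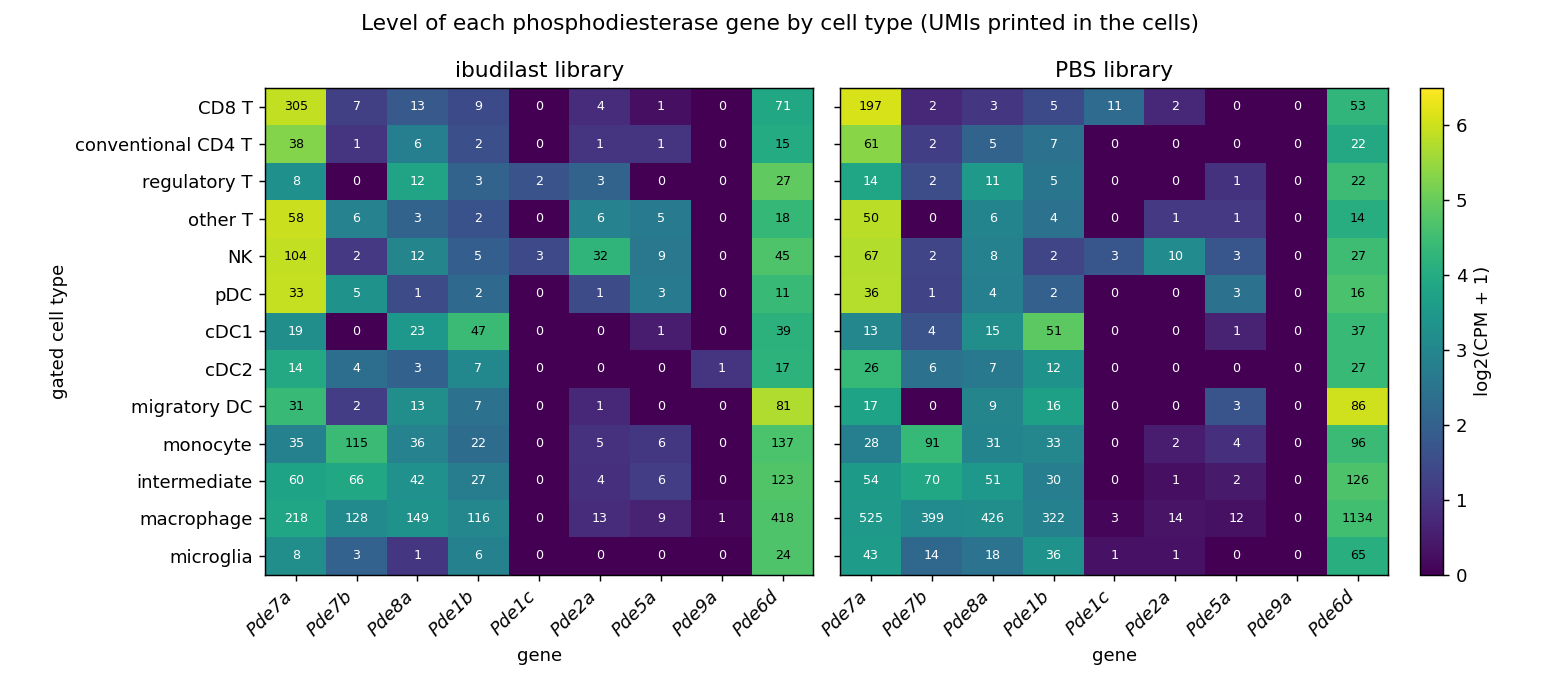
Level of each of the 9 genes in 13 gated cell types, as log2(CPM + 1) by colour, with the number of UMIs printed in each cell of the map, for the ibudilast library (left) and the PBS library (right). Both panels show high Pde7a in NK cells, plasmacytoid dendritic cells and T cells other than regulatory T cells. They show Pde7b along the monocyte and macrophage rows, Pde1b highest in cDC1 and Pde6d in every row, highest in migratory DC.

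Among the 13 compared types, Pde7a was highest in NK cells, plasmacytoid dendritic cells and T cells other than regulatory T cells, in both libraries. It encodes a cAMP-specific enzyme known from T cells, and lies at chr3:19223108-19311322 on the minus strand (GENCODE M21, GRCm38), overlapped on the other strand by the counted gene Gm16093. CD8 T cells held 305 Pde7a UMIs in the ibudilast library (59.2 CPM, interval 52.8 to 66.3) and 197 in the PBS library (68.1 CPM, 59.0 to 78.3). NK cells had 58.8 CPM in the ibudilast and 52.5 CPM in the PBS library, and plasmacytoid dendritic cells, the producers of type I interferon, had 59.8 and 53.9 CPM. T cells of no further gate were at 61.9 and 55.6 CPM. These 4 types could not be ordered among themselves beyond counting error, since no neighbour in the order stood above the next in both libraries.

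Conventional CD4 T cells came next, at 38.3 CPM (38 UMIs) in the ibudilast and 39.3 CPM (61 UMIs) in the PBS library. Their level was 0.647 times that of CD8 T cells in the ibudilast library (interval 0.449 to 0.908) and 0.577 times in the PBS library (0.426 to 0.773). They stood above the next type, cDC2, beyond counting error in both libraries. The remaining types, all myeloid or dendritic apart from regulatory T cells, were between 5.98 and 19.7 CPM. CD8 T cells were 4.51-fold above macrophages in the ibudilast library (interval 3.78 to 5.39) and 6.65-fold in the PBS library (5.62 to 7.85). Plasmacytoid dendritic cells were 7.18-fold and 7.57-fold above cDC1, the dendritic cells that present tumour antigen to CD8 T cells. Over cDC2 they were 4.19-fold (interval 2.18 to 8.47) and 2.79-fold (1.64 to 4.81) higher.

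Regulatory T cells, gated as T cells with a Foxp3 UMI, departed from the other T cells. Of their other markers, which took no part in the gate, Il2ra was at 587.0 and 501.0 CPM, against 210.0 and 116.0 CPM in conventional CD4 T cells, and Ikzf2 at 907.0 and 994.0 CPM, against 452.0 and 264.0 CPM. Regulatory T cells held 8 Pde7a UMIs over 81 cells in the ibudilast library (8.62 CPM, interval 3.72 to 17.0) and 14 UMIs over 93 cells in the PBS library (13.3 CPM, 7.26 to 22.3). Over conventional CD4 T cells this was a ratio of 0.225 in the ibudilast library (interval 0.0907 to 0.49) and 0.338 in the PBS library (0.175 to 0.611), so both libraries had the lower level in regulatory T cells. Median depth was alike, at 7276 and 7186 UMIs per regulatory and conventional CD4 T cell in the ibudilast library and 7845 and 7759.5 in the PBS library. The same pair of types differed in Pde3b, a cAMP phosphodiesterase gene known to be repressed by Foxp3 in mouse regulatory T cells. Pde3b was at 2.16 CPM (2 UMIs) in regulatory and 15.1 CPM (15 UMIs) in conventional CD4 T cells of the ibudilast library, a ratio of 0.143 (interval 0.0158 to 0.613). In the PBS library it was at 3.8 CPM (4 UMIs) and 14.2 CPM (22 UMIs), a ratio of 0.268 (0.0671 to 0.788).

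**Figure D2:**
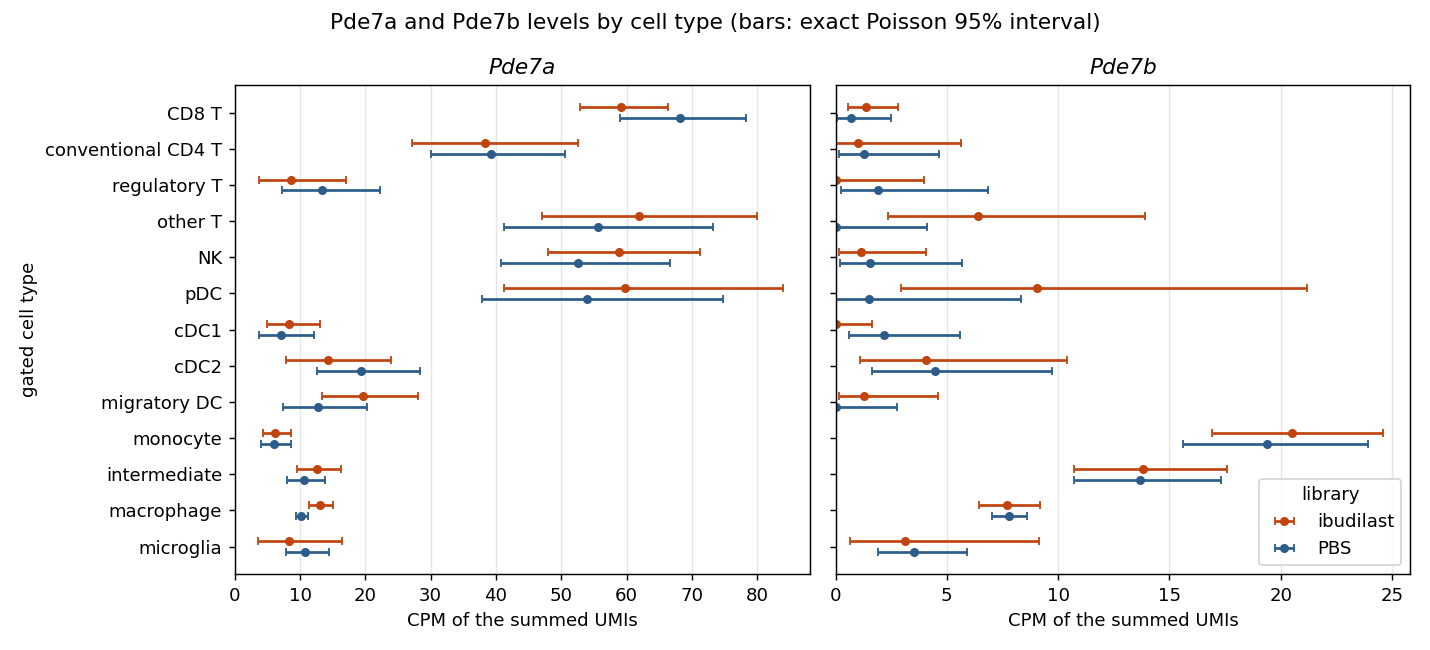
CPM of Pde7a (left) and Pde7b (right) in 13 gated cell types, with a point for the ibudilast library above the point for the PBS library and bars for exact Poisson 95% intervals. Pde7a separates CD8 T, other T, NK and plasmacytoid dendritic cells from regulatory T and myeloid cells, while Pde7b is highest in monocytes, at 20.5 and 19.4 CPM.

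Within CD8 T cells, Pde7a was lower in cells rich in Pdcd1, the gene of the inhibitory receptor PD-1. In the ibudilast library, 185 CD8 T cells with at least 3 Pdcd1 UMIs were at 46.2 CPM and 95 cells with none at 77.5 CPM, a ratio of 0.596 (interval 0.433 to 0.829). In the PBS library the levels were 53.7 CPM over 110 cells and 86.5 CPM over 73 cells, a ratio of 0.621 (0.437 to 0.887). The cells rich in Pdcd1 were deeper, with medians of 10941 against 6704 UMIs in the ibudilast and 11300 against 7398 in the PBS library, and the part of depth was not tested. With each cell weighted alike the ratios were 0.655 and 0.543. Cycling CD8 T cells had 0.52 times the Pde7a level of cells without cycling markers in the ibudilast library (interval 0.396 to 0.681), and 0.842 times in the PBS library, where the interval of 0.578 to 1.23 held 1. The cycling cells were deeper here too, with medians of 15547 against 6985 UMIs in the ibudilast and 16670.5 against 7331 in the PBS library. Cells with Gzmb, which encodes a granzyme, were at 1.15 times the level of cells without it in the ibudilast library (interval 0.881 to 1.5) and at 1.58 times in the PBS library (1.04 to 2.49). With each cell weighted alike these ratios were 0.912 and 1.26, so the direction in the ibudilast library depends on the weighting.

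Pde7b, the other PDE7 gene, had a different place: monocytes. It also encodes a cAMP-specific enzyme and lies at chr10:20398004-20725078 on the minus strand. Monocytes held 115 UMIs in the ibudilast library (20.5 CPM, interval 16.9 to 24.6) and 91 in the PBS library (19.4 CPM, 15.6 to 23.9). Cells gated between monocyte and macrophage were at 13.8 and 13.7 CPM, and macrophages at 7.71 and 7.78 CPM. Each of these steps exceeded counting error in both libraries. Monocytes were 1.48-fold above the intermediate cells in the ibudilast library (interval 1.09 to 2.04) and 1.42-fold in the PBS library (1.03 to 1.96), and the intermediate cells were 1.79-fold and 1.76-fold above macrophages. Monocytes over macrophages gave 2.66-fold in the ibudilast library (2.05 to 3.45) and 2.5-fold in the PBS library (1.97 to 3.14).

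Outside these cells Pde7b was sparse. Microglia, the resident macrophages of the brain, were at 3.13 CPM (3 UMIs) in the ibudilast and 3.51 CPM (14 UMIs) in the PBS library, and the PBS value was 0.451 times the macrophage level (interval 0.245 to 0.766). Plasmacytoid dendritic cells held 5 UMIs in the ibudilast and 1 in the PBS library, and T cells of no further gate held 6 UMIs in 4 cells, 3 of them from 1 cell, and 0. The intervals of those T cells, 2.35 to 13.9 CPM in the ibudilast and 0 to 4.1 CPM in the PBS library, overlapped. CD8 T cells held 7 and 2 UMIs and NK cells 2 and 2. In CD8 T cells Pde7b stood at 17.6% and 8.89% of its macrophage level, beside 5.53% and 6.31% for the complement genes C1qa, C1qb and C1qc, which T cells should lack. Macrophages over CD8 T cells gave 5.67-fold in the ibudilast library (interval 2.68 to 14.4) and 11.2-fold in the PBS library (3.09 to 93.2).

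Over the same monocyte to macrophage gates Pde7a ran the other way. It was at 6.24 CPM in monocytes, 12.6 CPM in intermediate cells and 13.1 CPM in macrophages of the ibudilast library, and at 5.98, 10.6 and 10.2 CPM in the PBS library. Macrophages over monocytes gave 2.1-fold in the ibudilast library (interval 1.47 to 3.1) and 1.71-fold in the PBS library (1.17 to 2.6). With each cell weighted alike, however, the PBS value was 0.996, so the PBS direction rests on weighting cells by depth. Median depth was 10663 UMIs in macrophages and 6894 in monocytes of the ibudilast library, and 14853 and 7683 in the PBS library. T cell RNA in these myeloid cells was low: the markers Cd3d, Cd3e, Cd3g and Trac stood at 0.766% and 0.364% of their CD8 T cell level in monocytes, where Pde7a stood at 10.5% and 8.77%. In macrophages the markers were at 0.66% and 0.29% and Pde7a at 22.2% of its CD8 T cell level in the ibudilast library.

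**Figure D3:**
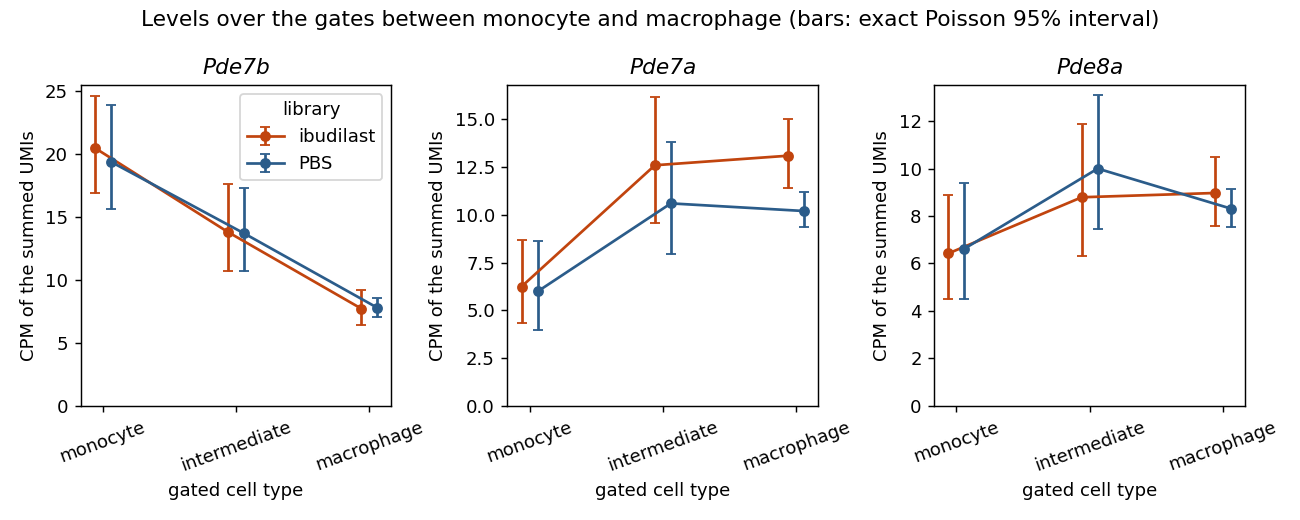
CPM of Pde7b, Pde7a and Pde8a in cells gated as monocyte, intermediate and macrophage, with 1 line per library and bars for exact Poisson 95% intervals. Pde7b falls over the 3 gates in both libraries, ending at 7.71 and 7.78 CPM, and Pde7a is lowest in monocytes, although with each cell weighted alike the PBS ratio of macrophages to monocytes was 0.996.

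Shares of cells with a UMI also move with depth and are given with and without thinning. Pde7a was seen in 44.3% of ibudilast and 49.1% of PBS CD8 T cells, and in 4.56% and 3.7% of monocytes. When each cell was thinned to 2000 UMIs, which left out 2 CD8 T cells in each library and 1 and 2 monocytes, the shares were 11.3% and 13.1% in CD8 T cells and 1.48% and 0.843% in monocytes. Pde7b, thinned in the same way, was in 4.84% and 4.72% of monocytes and in 1.78% and 1.42% of macrophages. Before thinning the macrophage shares were 8.84% and 11.3%, and the monocyte shares 14.0% and 13.3%.

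Pde8a was found in all 13 compared types, at 1.04 to 12.9 CPM. It encodes a cAMP-specific enzyme that the general inhibitor IBMX does not block, and lies at chr7:81213596-81334533 on the plus strand. Macrophages held 149 UMIs in the ibudilast library (8.97 CPM, interval 7.59 to 10.5) and 426 in the PBS library (8.31 CPM, 7.54 to 9.14). Monocytes were at 6.42 and 6.62 CPM and intermediate cells at 8.79 and 10.0 CPM. Microglia were at 1.04 CPM (1 UMI) in the ibudilast and 4.52 CPM (18 UMIs) in the PBS library. Macrophages stood 8.61-fold (interval 1.52 to 342.0) and 1.84-fold (1.15 to 3.13) above microglia. CD8 T cells were lower, at 2.52 CPM (13 UMIs) and 1.04 CPM (3 UMIs). Macrophages over CD8 T cells gave 3.56-fold in the ibudilast library (interval 2.02 to 6.83) and 8.01-fold in the PBS library (2.72 to 39.0).

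Among regulatory, conventional CD4 and CD8 T cells the order of the Pde8a levels was the reverse of the Pde7a order. Regulatory T cells were at 12.9 CPM (12 UMIs in 9 cells, 4 of them from 1 cell) in the ibudilast and 10.4 CPM (11 UMIs in 11 cells) in the PBS library. They exceeded CD8 T cells by 5.12-fold in the ibudilast library (interval 2.14 to 12.2) and by 10.1-fold in the PBS library (2.66 to 56.2). Macrophage RNA in regulatory T cells was at 9.07% and 8.68% of the macrophage level by the C1q genes, against 5.53% and 6.31% in CD8 T cells, while Pde8a in regulatory T cells was at 144.0% and 126.0% of its macrophage level. NK cells had 6.78 and 6.27 CPM, and conventional CD4 T cells 6.05 and 3.22 CPM. Along the order of all 13 types no neighbour differed from the next beyond counting error in both libraries.

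Pde1b marked cDC1. Its product is a calmodulin-dependent enzyme acting on both messengers, and the gene lies at chr15:103503034-103530052 on the plus strand. The cDC1 cells held 47 UMIs in 33 of 123 cells of the ibudilast library (20.6 CPM, interval 15.1 to 27.4) and 51 UMIs in 33 of 90 cells of the PBS library (27.9 CPM, 20.8 to 36.7). They exceeded macrophages by 2.95-fold in the ibudilast library (interval 2.06 to 4.17) and by 4.45-fold in the PBS library (3.24 to 5.99). Over cDC2 the ratios were 2.89 and 3.13, and over migratory dendritic cells, the mature Ccr7-expressing state, 4.62 and 2.34. All of these intervals lay above 1. Every other compared type was at or below 11.9 CPM, and CD8 T cells were at 1.75 and 1.73 CPM. The cDC1 were also deep, with median totals of 17982 and 20745.5 UMIs, and after thinning the share of cDC1 with a Pde1b UMI was 4.88% and 4.44%, against 1.49% and 1.27% of macrophages.

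Pde1c, a gene of the same calmodulin-dependent family, was sparse, with 24 UMIs in the ibudilast and 45 in the PBS library over all kept cells. It spans chr6:56069804-56569103 on the minus strand. Mast cells or basophils held 2 UMIs over 33 cells in the ibudilast and 12 UMIs over 69 cells in the PBS library, and in the PBS library their level was 552.0-fold that of macrophages, which held 3 UMIs (interval 149.0 to 3047.9). CD8 T cells held 0 UMIs over 472 cells in the ibudilast library and 11 UMIs in 9 of 269 cells in the PBS library. The PBS level of 3.8 CPM (interval 1.9 to 6.81) was 6.53-fold a floor of 3 UMIs per library (0.582 CPM in the ibudilast library). That fold leaves out the counting error of the 11 PBS UMIs. With it included, the interval of the ratio of ibudilast to PBS had an upper end of 0.224. The pair had too few UMIs to enter the count of pairs between libraries given below. The most from 1 PBS cell was 2 UMIs.

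Pde2a was highest in NK cells. Its product is a cGMP-stimulated enzyme, and the gene lies at chr7:101421691-101512827 on the plus strand, overlapped on the same strand by the counted gene Gm45837, so reads of shared exons are uncertain. NK cells held 32 UMIs in 26 of 306 cells of the ibudilast library (18.1 CPM, interval 12.4 to 25.5) and 10 UMIs in 9 of 154 cells of the PBS library (7.84 CPM, 3.76 to 14.4). The level in NK cells was 23.1-fold that of macrophages in the ibudilast library (interval 11.8 to 47.9) and 28.7-fold in the PBS library (11.4 to 69.5). Over CD8 T cells it was 23.3-fold (8.26 to 90.6) and 11.3-fold (2.42 to 106.0). The next type in the order, T cells of no further gate, was closer, at 6.4 CPM (6 UMIs) in the ibudilast and 1.11 CPM (1 UMI) in the PBS library. Over these cells NK cells were 2.82-fold (1.16 to 8.26) and 7.06-fold (1.0 to 306.0) higher. After thinning, 4.29% and 2.6% of NK cells had a UMI, against 0.213% and 0.375% of CD8 T cells. Without thinning the NK shares were 8.5% and 5.84%, from cells with median totals of 4631.5 and 6699.5 UMIs.

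Pde5a, the gene of the cGMP-specific enzyme that sildenafil blocks, gave 63 UMIs in the ibudilast and 47 in the PBS library. No compared type exceeded 5.44 CPM. Plasmacytoid dendritic cells were at 5.44 and 4.49 CPM from 3 UMIs each, and NK cells at 5.08 CPM (9 UMIs) and 2.35 CPM (3 UMIs). NK cells exceeded macrophages by 9.38-fold in the ibudilast library (interval 3.3 to 26.7) and by 10.1-fold in the PBS library (1.82 to 37.3). The gene lies at chr3:122728947-122859374 on the plus strand. Pde9a, which encodes a cGMP-specific enzyme, is at chr17:31386210-31476310 on the plus strand, and gave 13 UMIs in 10 ibudilast cells and 0 in the PBS library. Of these, 2 UMIs lay in the 13 compared types.

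Pde6d was found in every compared type. The gene lies at chr1:86542994-86582629 on the minus strand and gave 1707 UMIs in the ibudilast and 2327 in the PBS library. Migratory dendritic cells led with 81 UMIs in the ibudilast library (51.6 CPM, interval 41.0 to 64.1) and 86 in the PBS library (64.2 CPM, 51.3 to 79.2). They stood above the next type in the order, the intermediate cells, beyond counting error in both libraries, with ratios over macrophages of 2.05 in the ibudilast library (interval 1.59 to 2.6) and 2.9 in the PBS library (2.3 to 3.61). Over cDC1 the ratios were 3.02 and 3.17, and over cDC2 2.97 and 3.2. The other 12 types lay between 13.8 and 29.1 CPM, and no neighbours among them were separated in both libraries. Migratory dendritic cells also carried Adcy6, an adenylyl cyclase gene, at 133.0 and 134.0 CPM, and Npr1, which encodes a receptor guanylyl cyclase, at 31.8 and 47.0 CPM.

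Macrophage states were read next. Macrophages with at least 3 UMIs of Cxcl9, an interferon-induced chemokine gene, were compared with macrophages without, 640 against 462 cells in the ibudilast and 2049 against 566 in the PBS library. Ratios for Pde1b, Pde6d, Pde7a, Pde7b and Pde8a were between 0.693 and 1.19, and every interval held 1. Every interval for these 5 genes also held 1 for macrophages with Arg1 or Mrc1, of which the ibudilast library had 13 and 25 cells. Cycling macrophages had 1.19-fold Pde6d in the ibudilast library (interval 0.925 to 1.51) and 1.3-fold in the PBS library (1.12 to 1.49), and 1.49-fold (1.06 to 2.09) and 1.2-fold (0.974 to 1.49) Pde7a. The cycling cells were deeper, with medians of 19887 against 8904 UMIs in the ibudilast and 23515 against 12874 in the PBS library, and the part of depth was not tested. Macrophages with Gpnmb, a gene of lipid-laden and phagocytic macrophages, had 0.628 (interval 0.379 to 0.99) and 0.742 (0.513 to 1.04) times the Pde7a level of those without. The PBS interval held 1, and for the rest of these 5 genes every Gpnmb interval held 1.

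Between the libraries, most levels within a type differed by less than counting error. Of the 117 pairs of gene and cell type, 37 had at least 30 UMIs over both libraries, from 6 genes. Ratios of ibudilast to PBS in these 37 ran from 0.557 to 2.31, with a median of 1.06, and 33 intervals held 1. The share of all genes whose interval holds 1 is not given, so this count does not set these genes apart from others. The ratio was past 1.5-fold in 4 pairs, 3 higher and 1 lower in the ibudilast library. That is 10.8% of the pairs, against 12.1% of all gene and cell type pairs with the same minimum (6.96% higher and 5.17% lower), a share near that background. Among the pairs with many UMIs, Pde7b in macrophages was at 0.991 (interval 0.805 to 1.21), Pde8a in macrophages at 1.08 (0.89 to 1.3) and Pde7a in CD8 T cells at 0.869 (0.724 to 1.05).

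Pde2a in NK cells was the highest of these ratios, 2.31 (interval 1.11 to 5.26), from the 32 and 10 UMIs given above. In NK cells 9.28% of all genes were past 1.5-fold higher. Haemoglobin genes, the red cell list, were at 671.0 CPM in NK cells of the ibudilast library and 18.0 CPM in those of the PBS library, with all 4 genes found in both. The endothelial list was at 65.5 and 101.0 CPM, with 2 of 4 and 4 of 4 markers found. The part of these RNAs in the Pde2a ratio was not tested. Pde2a was also higher in the ibudilast library among barcodes with a lineage gate and macrophage RNA, at 2.54 CPM (45 UMIs) and 0.933 CPM (16 UMIs), and in macrophages at 0.783 CPM (13 UMIs) and 0.273 CPM (14 UMIs). The lineage gates of the former include that of NK cells. Levels were closer in CD8 T cells, at 0.777 CPM (4 UMIs) and 0.692 CPM (2 UMIs), and in barcodes of no gate, at 1.02 CPM (7 UMIs) and 0.816 CPM (6 UMIs).

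The other ratios past 1.5-fold rested on wide intervals. Pde6d in microglia was at 25.0 CPM in the ibudilast and 16.3 CPM in the PBS library (ratio 1.53, interval 0.918 to 2.48), where 7.42% of all genes were past 1.5-fold higher. Pde7a in migratory dendritic cells was at 19.7 and 12.7 CPM (ratio 1.56, interval 0.835 to 3.0), where 9.78% of all genes were past 1.5-fold higher. Pde1b in monocytes was lower, at 3.92 CPM (22 UMIs) in the ibudilast and 7.05 CPM (33 UMIs) in the PBS library, a ratio of 0.557 (0.309 to 0.984), where 3.81% of all genes were past 1.5-fold lower. Macrophages gave 2 ratios under 1.5-fold with intervals above 1, Pde7a at 1.28 (1.09 to 1.5) and Pde6d at 1.14 (1.02 to 1.27). T cell markers in macrophages also differed, with summed levels of 51.4 CPM in the ibudilast and 22.6 CPM in the PBS library and all 6 found in both, and their part in the Pde7a ratio was not tested.

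**Figure D4:**
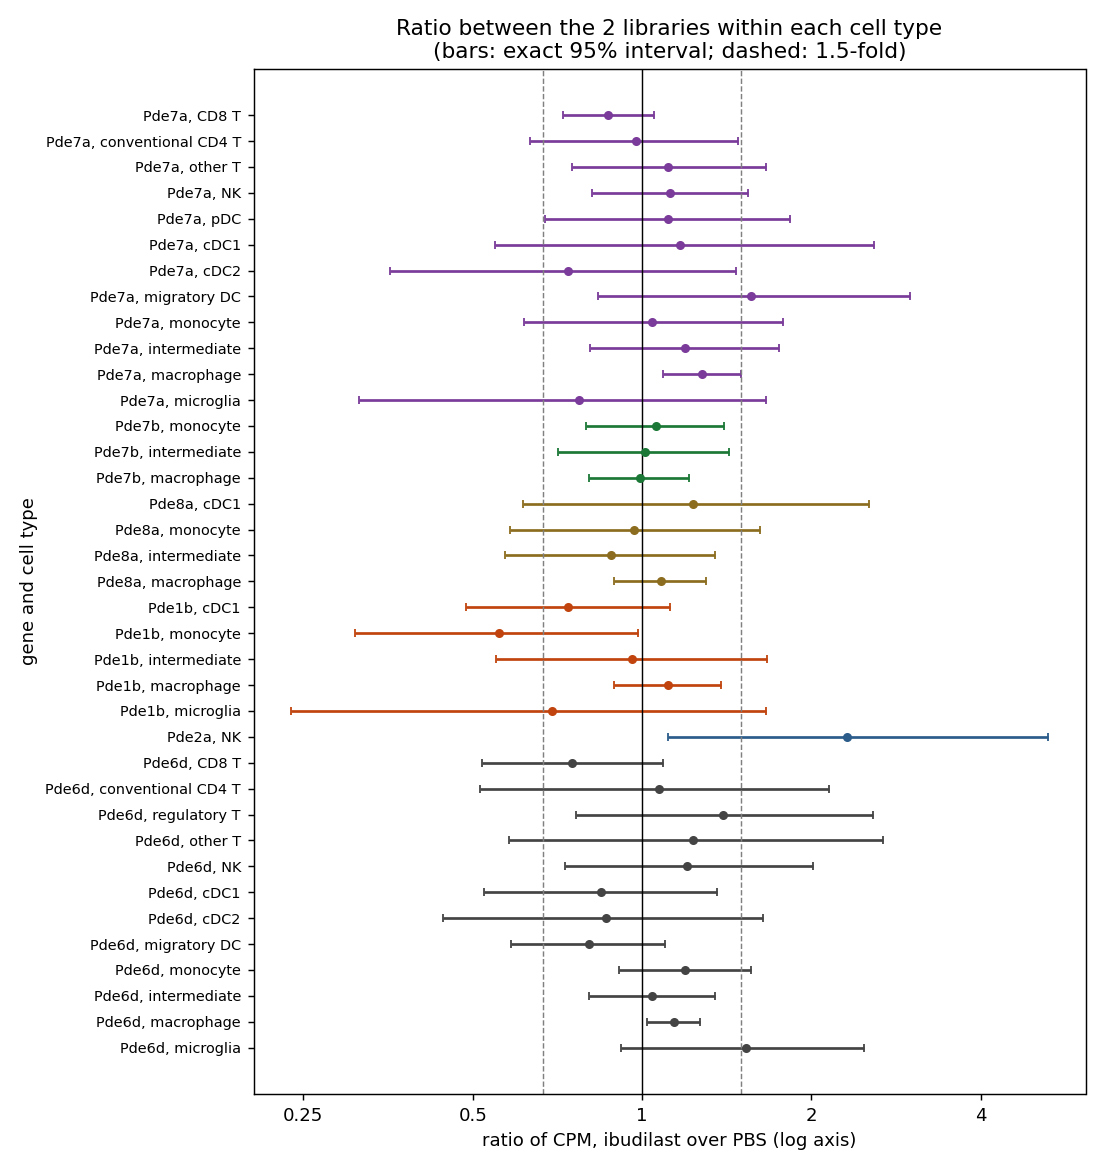
Ratio of CPM in the ibudilast library over the PBS library for the 37 pairs of gene and cell type with at least 30 UMIs, on a log axis, with exact 95% intervals and dashed lines at 1.5-fold in both directions. 33 of the 37 intervals cross 1, a count given without the same share over all genes. The point farthest to the right is Pde2a in NK cells, at 2.31.

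Over all kept cells together the picture for Pde7a was different from that within types. It was at 24.3 CPM in the ibudilast and 17.0 CPM in the PBS library, a ratio of 1.43. T and NK cells made up 16.6% of kept ibudilast cells and 10.2% of kept PBS cells, while monocytes, intermediate cells and macrophages together made up 39.8% and 56.5%. By UMIs, the shares used for the weighting below, they held 14.1% and 7.47%, and 38.4% and 58.3%. Neither group holds the barcodes with a lineage gate and macrophage RNA, 12.7% and 10.6% of kept cells. These include T barcodes: of 1459 ibudilast and 1252 PBS T barcodes, 530 and 531 had at least 150 macrophage-marker UMIs per 10000. With the PBS level of each class held and only the share of UMIs per class taken from the ibudilast library, the Pde7a ratio was 1.31. With the ibudilast levels weighted by the PBS shares it was 1.15. The classes here include the barcodes with mixed RNA and those of no gate, which held 42.7% of ibudilast and 33.8% of PBS Pde7a UMIs. For Pde2a the ratio over all cells was 3.34, that from the shares alone 1.39 and that from the levels alone 2.5. For Pde5a these values were 1.99, 1.27 and 1.69. Pde7b, Pde8a and Pde6d ranged from 0.955 to 1.1 on all 3 measures, and Pde1b from 0.881 to 0.987.

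**Figure D5:**
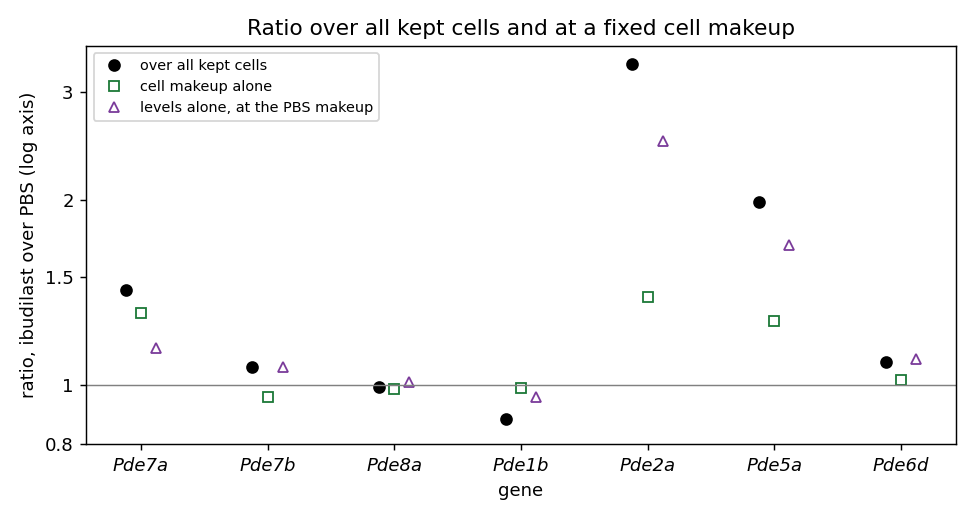
Ratio of ibudilast over PBS for 7 genes on a log axis: over all kept cells (filled circles), with PBS levels in the ibudilast cell makeup (squares) and with ibudilast levels in the PBS cell makeup (triangles). For Pde7a the square, at 1.31, lies nearer to the circle, at 1.43, than the triangle does, and for Pde2a the triangle, at 2.5, lies nearer to the circle, at 3.34.

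The rest of the cyclic nucleotide pathway was read from fixed lists by the same count, for which 6.96% of all pairs were past 1.5-fold higher and 5.17% lower. Of 34 pairs for the phosphodiesterases ibudilast is known to inhibit, 7 were past 1.5-fold higher and 2 lower in the ibudilast library. Adenylyl cyclases had 2 higher and 2 lower of 18, with Adcy7, the broadly expressed member, at 54.4 and 58.7 CPM in macrophages and 69.9 and 67.8 CPM in CD8 T cells. Guanylyl cyclases had 1 higher and 1 lower of 3, among them Npr1 in macrophages at 0.723 and 1.38 CPM (ratio 0.522, interval 0.258 to 0.97). Effectors of cAMP and cGMP had 6 higher and 3 lower of 59. Prkar1a, a regulatory subunit of protein kinase A, was at 272.0 and 277.0 CPM in CD8 T cells and 111.0 and 110.0 CPM in macrophages. Partners of the PDE6 delta protein, which include its release factors Arl2 and Arl3 and its cargo Rheb, had 4 higher and 2 lower of 59. Pde8b, the other PDE8 gene, was at 6.2 and 6.26 CPM in macrophages (ratio 0.991, interval 0.786 to 1.24). None of its 4 pairs was past 1.5-fold.

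Genes with the most similar level over the 26 points of 13 types by 2 libraries were looked up for the 5 genes with at least 500 UMIs. The measure was Pearson's r of log2(CPM + 1) over 9832 genes, where points share a library and a depth. For Pde7a they included Luc7l2 (0.951) and Ncald (0.911). For Pde7b they were Socs3 (0.858), Alas1 (0.853) and Edn1 (0.848), and for Pde1b Pomp (0.879), Cst3 (0.87) and Shtn1 (0.865). Pde6d was nearest to Pnpla8 (0.88), Gga3 (0.86) and Ggta1 (0.832). Pde8a had weaker matches, Commd1 (0.762), Fcf1 (0.659) and Slc41a3 (0.624).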

How the data were processed

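Both deposited matrices hold unnormalized counts of UMIs (whole numbers). Their headers name Cell Ranger 6.1.1, and the submitters' processing notes name mm10. The barcodes had already been called as cells. Cells with at least 300 genes, 500 UMIs and under 10% mitochondrial UMIs were kept (7079 ibudilast and 8155 PBS barcodes). Scrublet in scanpy 1.11.5 marked 0 cells by its own threshold, so the 6% with the highest scores were left out of each library. Types were gated on marker UMIs, and lineage barcodes with at least 100 macrophage-marker UMIs per 10000 were set aside. Of 1459 ibudilast and 1252 PBS T barcodes, 136 and 143 lay from 50 to 100 and 142 and 98 from 100 to 150. Markers Tcrg-C1 and Tcrg-C2 are not among the files' symbols. Intervals were exact Poisson, Clopper-Pearson or conditional binomial (scipy 1.17.1). A pair was counted past 1.5-fold by its ratio alone, at 30 UMIs or more. The ratio and its interval were tested on simulated Poisson counts with known folds. These counts hold no spread between cells, animals or libraries, so the test covers counting error only.

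The genes, lists and gates were chosen with earlier results of these data known. All 9 genes were named, with pathway genes from fixed lists, 3 most similar genes for each gene with at least 500 UMIs, and state markers. Some results of these lists are not reported here. The weighting by cell makeup was added after the data were seen. Regulatory T cells needed 1 Foxp3 UMI; Il2ra and Ikzf2 took no part in the gate.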

Additional observations from a re-analysis of the deposited data

Results flagged for a closer look

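Pde9a was found in barcodes that no gate assigned to a type, which are in none of the 13 compared types. These barcodes held 7 Pde9a UMIs in 5 cells of the ibudilast library, and 0 in the PBS library, where a count of 0 allows up to 3 UMIs (0.408 CPM). The 5 cells together held 82 UMIs of astrocyte markers, 46 of oligodendrocyte markers and 2 of Ptprc, the gene of CD45. Of the other ibudilast UMIs of Pde9a, 3 lay in 2 oligodendrocyte barcodes, and 1 lay in a barcode gated as macrophage that held 143 astrocyte marker UMIs and 0 of Ptprc. The last 2 UMIs lay in a cDC2 barcode with 4 Ptprc, 1 oligodendrocyte marker and 0 astrocyte marker UMIs, and in a barcode with a lineage gate and macrophage RNA that held 17 Ptprc UMIs and 0 of either glial list.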

How the results depend on the processing

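No paired analysis was possible because each group is 1 library and the labels carry no replicate numbers. Of 37 pairs followed under 7 alternatives, 250 of 259 values stayed within the main interval and 9 moved out of it, 7 of them in cells thinned to 2000 UMIs. None of the 4 pairs past 1.5-fold changed direction in any of these: Pde2a in NK cells ran from 1.88 to 2.3, Pde6d in microglia from 1.4 to 2.61, Pde7a in migratory dendritic cells from 1.23 to 2.27 and Pde1b in monocytes from 0.362 to 0.615. The count of 4 moved to 44 of 94 pairs with no minimum, 0 of 15 at 100 UMIs, 1 of 12 in thinned cells, 11 at a lower fold and 1 at 2-fold; fewer pairs qualify at 100 UMIs and in thinned cells. Doublets kept, the stricter gate, the stricter cell filter, the 2 other scalings and the mean over cells left it within 1.5 times. Median-of-ratios scaling moved the median gene by -0.055 to 0.02 (log2) across types. Of 64 values for 16 comparisons between types, 61 stayed within the main interval. The exceptions came with each cell weighted alike: Pde7a in CD8 T cells over macrophages (5.4, ibudilast), Pde2a in NK cells over macrophages (49.6, ibudilast) and Pde7a in macrophages over monocytes, which reversed (0.996, PBS); the cause was not tested. At this depth Pde2a had 1 pair with at least 30 UMIs and Pde1c, Pde5a and Pde9a had 0.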

Other observations

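Small gated populations were left out of the comparisons. Oligodendrocytes, the myelinating cells of the brain and no target of the CD45 sort, numbered 60 in the ibudilast and 19 in the PBS library. They carried Pde8a at 50.8 CPM (44 UMIs) and 33.2 CPM (19 UMIs), which was 5.66-fold (interval 3.95 to 7.97) and 4.0-fold (2.38 to 6.32) the macrophage level. Pde6d stood at 85.5 and 63.0 CPM in them, 3.39-fold and 2.85-fold the macrophage level, and Pde1c at 13.9 CPM (12 UMIs) and 8.75 CPM (5 UMIs). B-lineage cells, 45 and 50 in number, had Pde7a at 38.0 CPM (13 UMIs) and 53.3 CPM (16 UMIs) and no Pde7b or Pde8a UMI in either library. Gamma-delta T cells, 20 in each library, had 12 and 7 Pde7a UMIs (106.0 and 49.7 CPM). Mast cells or basophils had Pde7a at 36.5 and 35.0 CPM, from 8 and 13 UMIs. Neutrophils, 33 in the ibudilast and 35 in the PBS library, had Pde1b at 16.0 and 17.2 CPM, from 2 UMIs in each.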
